A study of Mus musculus with 29 samples.

Results

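The genes described here are the C-type lectin receptor genes Clec7a, Clec4d, Clec4e, Clec4n and Clec12a together with Cd72, a receptor with the same kind of extracellular domain. The 6 genes were chosen by name, out of 27827 genes present in any of the deposited tables and 15721 present in every one, and each was read in every library, as a level in CPM, its share of all counts summed over the cells of one type in one library. Single-cell libraries were made by Drop-seq, a droplet method that tags the 3′ end of transcripts, from the brain and blood of C57BL/6J mice whose middle cerebral artery had been blocked for a time and reopened (MCAO, a model of ischaemic stroke), or that had a sham operation. The cell types are the codes that the authors deposited with each cell, at a coarse level (Mg, MdC, Gran, BAM, DC and others) and at a finer level that divides them (Mg1, Mg2 and so on).

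The young mice were 8 to 10 weeks old and male, and gave 4 brain libraries 2 days after sham surgery, 4 at 2 days after stroke and 4 at 14 days after stroke, with 4, 4 and 3 blood libraries from the matching groups. The aged mice were 17 to 20 months old and gave brain libraries only, namely 1 male and 1 female at 2 days after sham, 1 male and 2 female at 2 days after stroke, and 1 female at 14 days after stroke. No sham group was taken at 14 days, so the day 14 libraries were compared with sham libraries of day 2. Each brain library pooled 4 to 5 hemispheres, digested with papain in the presence of actinomycin D and sorted into cells high in CD45, microglia and endothelial cells, and each blood library pooled 2 mice after lysis of red cells and depletion of Ter-119-positive cells. The tests below therefore measure the spread between pooled libraries, not between single mice. The sort fixes which cells enter a brain library, so the levels are given within a type and say nothing of how many such cells the tissue held.

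The libraries held 1143 to 6328 cells and 819438 to 5855047 counts each (median 2580016), at a median of 320.8 to 1363 counts per cell. At most 7 of the cell barcodes, which are 12 bases long, were shared by any of the 406 pairs of libraries. The type codes held against marker genes: the summed level of 9 microglial markers was 16057 to 28779 CPM in Mg of the young groups, with 1 exception, the monocyte markers summed to 26558 to 56118 CPM in MdC, and the neutrophil markers to 50385 to 306641 CPM in Gran. The exception was replicate 3 of the young day 2 stroke group, whose 58 Mg cells had a microglial marker sum of 817 CPM and a monocyte marker sum of 4297 CPM, against 16859 to 17820 CPM and 545 to 1318 CPM in the other 3 libraries of that group. That library goes against its code in Mg, so the day 2 changes of Clec7a and Cd72 in Mg, and the counts and shares that rest on it, are given with and without it. A set of predicted-gene rows was above 150 CPM in some libraries and below it in others. The labels used here name no batch that matches this predicted-gene split, whose source was not tested. On its high side lay replicate 2 of the day 2 stroke group and replicates 1 and 2 of the day 14 group in young brain, but no young sham library.

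As background, C-type lectin receptors of myeloid cells recognise sugars and lipids on microbes and, for some of them, material from dying cells. Clec7a encodes Dectin-1, which binds beta-glucans and signals through a tyrosine motif in its own tail to the kinase Syk and the adaptor Card9. Clec4e encodes Mincle, Clec4d encodes its partner MCL, and Clec4n encodes Dectin-2, and these receptors reach the same kinase through the adaptor Fcer1g. Clec12a and Cd72 carry inhibitory motifs that recruit phosphatases such as Ptpn6. Clec12a is found on granulocytes, monocytes and dendritic cells, and Cd72 is best known as a co-receptor of B cells that binds the semaphorin Sema4d. In microglia, Clec7a is a common marker of the state seen around plaques, degenerating neurons and demyelinated tissue.

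The lectin genes lie in 2 clusters on mouse chromosome 6. In the RefSeq annotation of GRCm38.p6, Clec4n (chr6:123229843-123247024, plus strand), Clec4d (chr6:123262107-123275268, plus strand) and Clec4e (chr6:123281789-123289871, minus strand) are neighbours, and Clec12a (chr6:129349783-129365303, plus strand) and Clec7a (chr6:129461591-129472785, minus strand) lie further along, with Clec12b, Clec1b, Clec9a and Clec1a between them. Cd72 lies on chromosome 4 (chr4:43447724-43455102, minus strand). RefSeq promoter entries matched 5 of the 6 genes, all but Clec4n. The hexamer GAGGAA, the core of the sites bound by PU.1-type factors of myeloid and B cells, was searched on both strands in the 240 bases that lie 250 to 11 bases before the start. It occurred in 5 of 5 members with an entry and in 22.3% of 32851 such windows of all promoters. The AP-1-type motif TGANTCA occurred in 1 of the 5 (Clec12a) and in 6.58% of all windows. The start used for Cd72 and for Clec12a lies inside the gene span given above, downstream of its 5′ end. Of these windows 4 are shown, 5′ to 3′ on the strand of the gene, because the levels of these genes carry the results below, with every GAGGAA or its reverse complement in capitals. A match is a description of the letters only.
Clec7a, chr6:129472796-129473035, minus strand: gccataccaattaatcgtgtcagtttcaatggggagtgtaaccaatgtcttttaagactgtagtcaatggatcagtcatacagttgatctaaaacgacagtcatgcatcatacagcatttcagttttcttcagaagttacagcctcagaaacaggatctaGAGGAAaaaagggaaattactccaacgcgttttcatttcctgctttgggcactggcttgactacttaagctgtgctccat
Cd72, chr4:43454637-43454876, minus strand: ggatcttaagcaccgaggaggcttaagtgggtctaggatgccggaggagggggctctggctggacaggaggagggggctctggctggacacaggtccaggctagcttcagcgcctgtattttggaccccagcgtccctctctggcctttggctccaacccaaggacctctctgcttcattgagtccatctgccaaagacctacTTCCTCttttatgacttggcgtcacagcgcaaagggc
Clec4d, chr6:123261857-123262096, plus strand: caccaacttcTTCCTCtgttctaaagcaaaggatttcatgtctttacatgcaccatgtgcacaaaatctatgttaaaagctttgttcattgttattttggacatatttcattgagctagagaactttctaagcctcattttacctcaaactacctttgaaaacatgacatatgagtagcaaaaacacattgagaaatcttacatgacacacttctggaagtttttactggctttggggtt
Clec4e, chr6:123289882-123290121, minus strand: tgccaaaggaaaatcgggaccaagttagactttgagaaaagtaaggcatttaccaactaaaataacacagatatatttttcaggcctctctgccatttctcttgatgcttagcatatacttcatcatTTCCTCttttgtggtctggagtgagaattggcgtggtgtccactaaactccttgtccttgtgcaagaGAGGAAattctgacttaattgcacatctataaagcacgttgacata
In these windows the motif began 90 bases before the start in Clec7a, 47 in Cd72, 240 in Clec4d, and 56 and 123 in Clec4e.

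The 6 genes divided the cell types between them. The authors' types were clusters of these same cells, so the levels by type are a description with no test. In young sham brain, Clec7a was highest in Gran (1096 CPM ± 429, SD, n = 4), MdC (1063 ± 476), BAM (879 ± 719) and DC (852 ± 441), which overlapped one another, and stood at 30.4 ± 13.6 CPM in Mg. Clec4d and Clec4e followed one order, Gran then MdC, with Clec4d at 779 ± 162 and 174 ± 80.6 CPM and Clec4e at 903 ± 282 and 657 ± 176 CPM. The spreads of the Clec4d levels did not overlap between Gran and MdC, and those of Clec4e did. Clec4n was highest in BAM in sham brain (368 ± 145 CPM), well above DC (86.9 ± 17.0) and MdC (67.9 ± 43.6), which overlapped. Clec12a was highest in MdC (306 ± 146 CPM), overlapping BAM (231 ± 132) and DC (186 ± 61.8). Cd72 was highest in B cells (Bc, 411 ± 236 CPM), with BAM and DC next at 123 ± 138 and 113 ± 13.0 CPM, and was at 4.96 ± 1.66 CPM in Mg. In blood, neutrophils (Neu) carried the highest Clec7a, Clec4d and Clec4e, monocytes (Mo) the highest Clec12a (326 ± 20.5 CPM in sham), and B cells the highest Cd72 (244 ± 42.6 CPM in sham), followed by NK cells (118 ± 39.7).

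**Figure D1:**
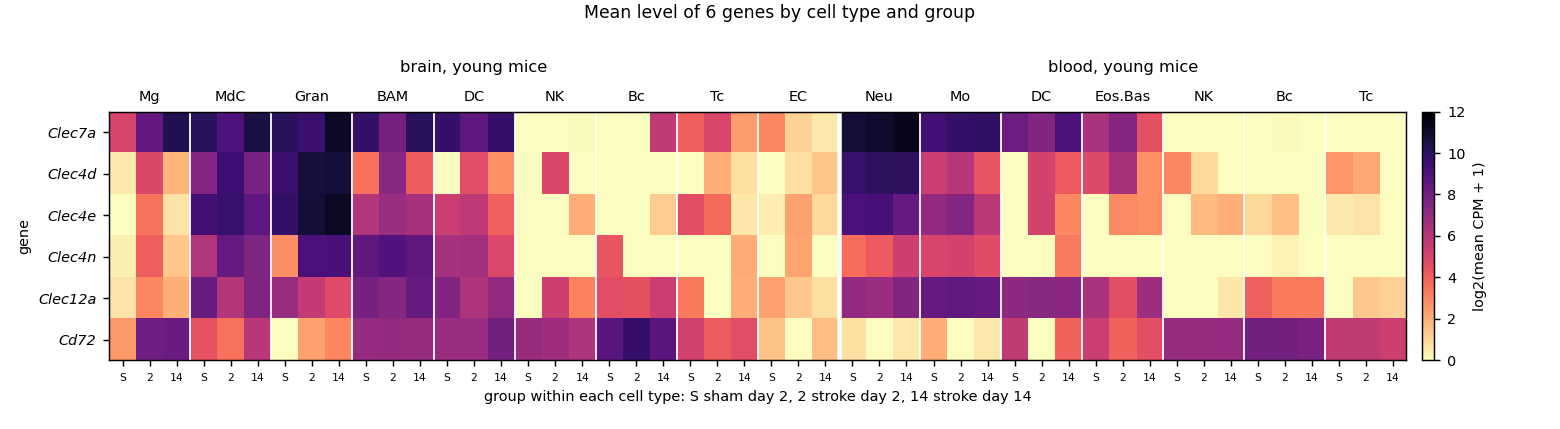
Mean level of each of the 6 genes, in rows, as log2 of CPM + 1 by colour, in each cell type and young group (columns) of brain and blood. Clec7a and Cd72 are low in Mg of sham brain and high in Mg after stroke, and Clec4n is low in Gran of sham brain and high in Gran after stroke.

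In Mg, the cells that carry the microglial markers, Clec7a and Cd72 were both higher after stroke. Both were called against sham on day 2 and on day 14, where 31.4% and 15.2% of all genes tested were called. Cd72 passed the filter on low counts only through its stroke libraries. Between the 2 stroke days Clec7a was called higher and Cd72 was not called, and the ranges of both genes overlapped between these days. The other 4 genes stayed near 0 in Mg of young mice and did not pass the filter on low counts.

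Clec7a in Mg stood at 13.9, 32.8, 28.2 and 46.9 CPM in the 4 young sham libraries. On day 2 after stroke it was 107, 107, 1009 and 126 CPM, and on day 14 it was 1185, 828, 1236 and 1810.1 CPM. All 4 day 2 libraries were above all 4 sham libraries, and replicate 3 of day 2, the library with few microglial transcripts, was the one that reached the day 14 range. The means were 30.4 ± 13.6 CPM in sham, 337 ± 448 on day 2 (113 ± 10.8 over 3 libraries without replicate 3) and 1265 ± 407 on day 14. The log2 fold change of Clec7a over sham was 2.94 ± 0.64 (SE) on day 2 (edgeR adjusted p = 0.00463) and 5.81 ± 0.67 on day 14 (edgeR adjusted p = 6.86e-05). Without replicate 3 of day 2, the day 2 value was 2.07 ± 0.38 (edgeR adjusted p = 0.00248). Between day 2 and day 14 Clec7a rose by a further 2.87 ± 0.62 (edgeR adjusted p = 0.0145), and by 3.73 ± 0.42 without replicate 3 of day 2 (edgeR adjusted p = 0.000682). The call between the stroke days over all libraries was lost without replicate 1 of day 2 (adjusted p = 0.0954), without replicate 4 of day 2 (adjusted p = 0.0782) and when only the 2 groups were fitted (adjusted p = 0.0615).

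Cd72 in Mg stood at 6.35, 4.71, 6.05 and 2.71 CPM in sham. On day 2 it was 335, 305, 48.7 and 404 CPM, and on day 14 it was 291, 245, 457 and 156 CPM. The sham values rest on 3.39 to 10.3 counts each. No stroke library overlapped the sham range, and the lowest stroke value came again from replicate 3 of day 2. The means were 4.96 ± 1.66 CPM in sham, 273 ± 155 on day 2 (348 ± 51.0 over 3 libraries without replicate 3) and 287 ± 126 on day 14. Cd72 rose by 6.14 ± 0.55 on the log2 scale on day 2 (edgeR adjusted p = 1.48e-05) and by 6.34 ± 0.56 on day 14 (edgeR adjusted p = 6.27e-06). Cd72 passed the filter on low counts only through its stroke libraries, since all 4 sham libraries were below the 7.26 CPM that the filter asks for. Fitted with no filter, its changes were 6.12 ± 0.54 and 6.32 ± 0.54 (edgeR adjusted p = 7.81e-07 and 2.35e-07). The sham levels are of the order of those in endothelial cells, where Cd72 was at most 11.8 CPM, so the fold rests on a base that is not above that background. The difference between the 2 stroke days was 0.20 ± 0.41 (edgeR adjusted p = 0.847), which does not show that they were alike. With a library left out, replicate 3 of day 2 among them, this difference ran from -0.15 to 0.46, so its sign is not settled. Without replicate 3 of day 2 the day 2 change of Cd72 was 6.35 ± 0.44. Over all genes tested in Mg, 31.4% were called on day 2, 15.2% on day 14 and 6.93% between the 2 days, at an adjusted p under 0.05 in either direction. Without replicate 3 of day 2, 3051 of 11084 genes were called on day 2. Calls were thus common in these comparisons, and a call alone says little about these genes. Within the libraries on the low side of the predicted-gene split, the changes of Clec7a over sham were 3.25 (day 2) and 6.10 (day 14). Those of Cd72 were 6.19 and 6.47. These were as large as in all libraries, but replicate 3 of day 2 was among them. The low side was not fitted without it, so its day 2 value of Clec7a is given only with that library.

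**Figure D2:**
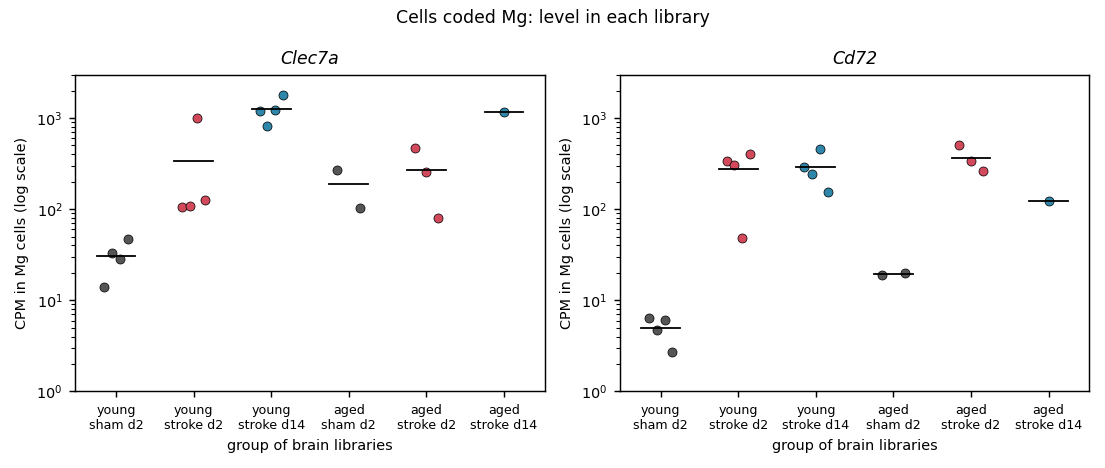
Levels of Clec7a and Cd72 in Mg in each brain library (points, log axis in CPM), by group, with the group mean as a line. Cd72 lies between 48.7 and 457 CPM in all 8 young stroke libraries against 2.71 to 6.35 in sham, and Clec7a in young mice is above 800 CPM in each library on day 14 and at 107 to 126 CPM on day 2 in all but replicate 3.

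Markers of other cells were read in the same sums. The monocyte marker sum in Mg was 235 to 397 CPM in sham, 545 to 4297 on day 2 and 2156 to 3178 on day 14, against 26835 to 56118 CPM in MdC on day 14. Clec7a on day 14 was at a mean of 1265 CPM in Mg and 1456 CPM in MdC, with overlapping spreads, while the monocyte marker sum of Mg was far below that of MdC. Cd72 was at a mean of 10.6 CPM in MdC on day 2, below its level in Mg. B cell markers, read because Cd72 is a B cell gene, summed to at most 48.1 CPM in Mg of sham, 39.6 on day 2 and 23.9 on day 14, with Cd79a and Ms4a1 at 0 in sham and Pax5 at 0 in both stroke groups. The microglial marker sum was itself lower after stroke, 16057 to 20670 CPM on day 14 against 20769 to 28779 in sham. The part of these shifts in the results was not tested.

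The finer codes divide Mg by state. In young sham brain, Mg1 held 53.0% ± 13.9 of Mg cells and Mg2 37.8% ± 8.5. On day 2, Mg4 held 52.0% ± 29.8 and Mg5 26.4% ± 16.7, or 37.1% ± 3.0 and 34.6% ± 3.7 without replicate 3, in which 56 of the 58 Mg cells were Mg4. On day 14, Mg3 held 69.6% ± 7.4, having been 0.8% in sham. The clusters were made from the same transcripts, so these values describe them and test nothing. Within one code, Clec7a still differed between days. In Mg3 it was 689 ± 328 CPM in sham (n = 2 libraries with at least 20 such cells), 106 ± 17.3 on day 2 (n = 3) and 1410 ± 548 on day 14 (n = 4), and in Mg5 it was 104 ± 30.2 on day 2 (n = 3) and 1776 ± 347 on day 14 (n = 2). In Mg1, the commonest sham code, Clec7a was 16.7 ± 17.2 CPM in sham, 23.5 ± 11.5 on day 2 and 142 ± 21.6 on day 14. Cd72 by contrast was at 367 ± 224, 378 ± 223 and 329 ± 36.4 CPM in Mg3, Mg4 and Mg5 on day 2, and 303 ± 87.3 CPM in Mg3 on day 14. Its level in Mg1 was 3.16 ± 2.36 CPM in sham, 44.3 ± 48.2 on day 2 and 38.0 ± 27.2 on day 14. In the Mg4 cells of replicate 3 of day 2, Clec7a was 1097 CPM and Cd72 was 53.0 CPM, against 138 to 197 and 414 to 536 CPM in Mg4 of the other 3 libraries.

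**Figure D3:**
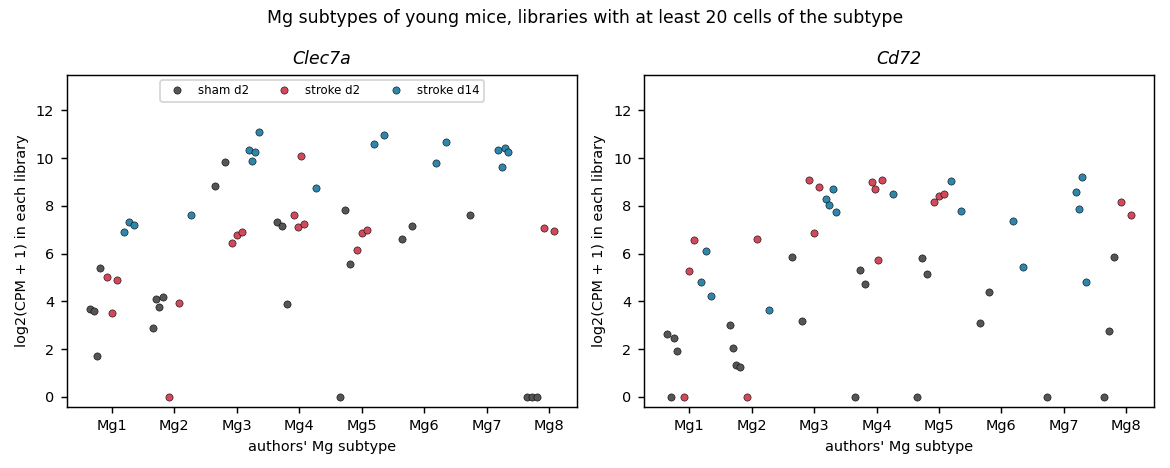
Levels of Clec7a and Cd72 (log2 of CPM + 1) in each finer Mg code by young group, each point a library with at least 20 cells of that code. Clec7a is higher on day 14 than on day 2 within Mg3 and Mg5, and the Cd72 levels of both days overlap in Mg3 and Mg5.

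The remaining genes were rare in Mg. Clec4d was at 1.55, 0, 0 and 0 CPM in young sham, 15.5, 1.50, 98.9 and 0 on day 2, and 5.17, 5.22, 0 and 0 on day 14. The value of 98.9 CPM came from 2.604 counts in the small replicate 3. Clec4e was at 0 in all 4 sham libraries and at 16.1, 8.15, 17.1 and 0 CPM on day 2, a sum of 21.99 counts over the group, of which replicate 1 gave 16.606. Clec4n was at or below 9.13 CPM in every young Mg library apart from replicate 3 of day 2 (47.3 CPM), and Clec12a at or below 6.18 apart from the same library (21.8 CPM). In endothelial cells (EC), which should lack these receptors, every one of the 6 genes was at or below 17 CPM in every library. Levels of this order in Mg are not above the highest background over the 6 genes, but the background differed by gene. Clec4n reached 11.2 CPM in EC, whereas Clec4d reached 3.55 CPM. Clec4d in Mg of day 2 replicate 1 (15.5 CPM, 15.945 counts) was above its own EC values.

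In Mg of the aged brain, Cd72 again rose on day 2 and Clec7a was not called. Clec7a in Mg was 270.2 (female) and 103 CPM (male) in aged sham, both above the highest young sham library. At 2 days after stroke it was 469, 253 and 80.5 CPM, overlapping aged sham, and in the single aged library of day 14 it was 1162 CPM. Its change on day 2 was 0.62 ± 0.72 (edgeR adjusted p = 0.755), and it ran from -0.11, without the first female aged stroke library, to 1.52, without the female aged sham library, and was called in neither. Cd72 was 18.7 and 19.8 CPM in aged sham and 509, 334 and 259 CPM on day 2 (mean 368 ± 128), and 122 CPM in the library of day 14. Cd72 rose by 4.37 ± 0.64 on day 2 (edgeR adjusted p = 0.00805), while 2.3% of all genes tested were called, and the call was lost without the female aged sham library (adjusted p = 0.132) and when only the 2 groups were fitted (adjusted p = 0.0636). The stroke effect in aged minus young mice was -2.16 ± 0.94 for Clec7a and -1.83 ± 0.76 for Cd72, and neither was called (edgeR adjusted p = 0.768 for each). Without replicate 3 of young day 2 these were -1.54 ± 0.76 and -2.05 ± 0.54 (edgeR adjusted p = 0.751 for each). With 1 library left out the Clec7a value ran from -2.90, without the first female aged stroke library, to -1.26, without the female aged sham library. In that interaction 0% of genes were called by edgeR, with 623 genes at an unadjusted p under 0.05 and 1 called by DESeq2. Clec4d in Mg of aged mice was 0 in both sham libraries and 21.4, 36.7 and 7.87 CPM on day 2, with neutrophil markers reaching 1686 CPM in Mg of the male library, and it was not called (edgeR adjusted p = 0.15). The young mice were all male, and the aged groups held both sexes. The deposited tables listed 27514 genes for aged brain and 19704 for young brain. Age, sex and deposited table thus differed together in the interaction, and their parts cannot be told apart. Both aged sham libraries lay on the high side of the predicted-gene split and all young sham libraries on the low side, while the stroke groups of both ages held both sides. With the split as a term, the day 2 change of Cd72 in aged Mg was 4.41 ± 0.66 (edgeR adjusted p = 0.0106) and the interaction was -2.06 ± 1.00 for Clec7a and -1.74 ± 0.81 for Cd72 (edgeR adjusted p = 0.808 for each).

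In MdC, the cells with monocyte markers, the activating receptor genes Clec4d and Clec4n rose on day 2 and the inhibitory receptor gene Clec12a fell. The activating receptor genes Clec4e and Clec7a were not called, at log2 changes of 0.74 and -0.48, and Cd72 was not called either. From day 2 to day 14 Clec4d fell and Clec12a rose. Of the 6 genes tested, 3 were called on day 2, 0 on day 14 against sham and 4 between the 2 stroke days, where 6.71%, 5.15% and 1.79% of all genes tested were called.

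Clec4d in MdC was 196, 275, 87.2 and 138 CPM in young sham, 757, 549, 721 and 815 on day 2, and 204, 180.0, 226 and 272 on day 14. The day 2 libraries lay apart from both other groups, which overlapped. The log2 fold change of Clec4d was 2.35 ± 0.33 on day 2 against sham (edgeR adjusted p = 0.000802) and -1.74 ± 0.28 on day 14 against day 2 (edgeR adjusted p = 0.00631), and 0.61 ± 0.33 on day 14 against sham (edgeR adjusted p = 0.38). Its partner Clec4e was 871, 703, 453 and 599.7 CPM in sham, 898, 501, 871 and 954 on day 2, and 437, 348, 337 and 428 on day 14. Sham and day 2 overlapped, and all day 14 libraries lay below all other libraries. The Clec4e change was 0.74 ± 0.30 on day 2 (edgeR adjusted p = 0.175) and -1.11 ± 0.29 from day 2 to day 14 (edgeR adjusted p = 0.0739), the latter called by DESeq2 (adjusted p = 0.00385) and in edgeR without replicate 2 of day 2 (adjusted p = 0.0236). Of these 2 genes, which lie next to each other and whose products pair, 1 was called on day 2 and the other was not, and the difference between them was not tested.

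Clec4n in MdC was 124, 44.3, 24.5 and 78.7 CPM in sham, 210.0, 361, 359.8 and 404 on day 2, and 89.0, 152, 274 and 257 on day 14. Every day 2 library was above every sham library, and the day 14 libraries spanned the gap between them. The change of Clec4n was 2.59 ± 0.51 on day 2 (edgeR adjusted p = 0.00716) and 1.74 ± 0.52 on day 14 (edgeR adjusted p = 0.0662). With a library left out it ran from 2.40 to 3.47 on day 2 and from 1.47 to 2.62 on day 14. The day 14 value was called by DESeq2 (adjusted p = 0.0395), without replicate 1 of day 14 (adjusted p = 0.0369) and within the low side of the predicted-gene split, where Clec4n rose by 2.27 (adjusted p = 0.0039). The young sham sums were small, at 18299.5 to 112149 counts from 43 to 99 cells, so the sham values of Clec4n rest on 0.992 to 13.9 counts each.

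Clec12a in MdC was 196, 239, 270.2 and 521 CPM in sham, 84.2, 27.6, 96.4 and 59.1 on day 2, and 227, 172, 227 and 151 on day 14. All day 2 libraries were below all others, and sham and day 14 overlapped. Clec12a fell by 1.58 on the log2 scale on day 2 (SE 0.38, edgeR adjusted p = 0.0224) and rose by 1.50 ± 0.33 from day 2 to day 14 (edgeR adjusted p = 0.0302). The first call was lost without sham replicate 2, 3 or 4 (adjusted p = 0.111, 0.116 and 0.136), and the second without replicate 1 or 4 of day 2 or any library of day 14 (adjusted p up to 0.119). Clec7a was 532, 921, 1675 and 1123 CPM in sham, 521, 405, 677 and 501 on day 2, and 1422, 922, 1445 and 2035 on day 14. Its sham range overlapped both stroke groups, which did not overlap each other. Clec7a rose by 1.43 ± 0.33 from day 2 to day 14 (edgeR adjusted p = 0.0395), a call lost when any 1 library of either group was left out (adjusted p up to 0.253), and its changes over sham were -0.48 ± 0.34 and 0.94 ± 0.34 (edgeR adjusted p = 0.484 and 0.14). Cd72 remained low, at 0 in 3 sham libraries and 81.6 CPM in replicate 2 (4.704 counts), 4.19 to 15.7 CPM on day 2 and 33.1 to 81.0 CPM on day 14. It rose by 2.42 ± 0.58 between the stroke days (edgeR adjusted p = 0.0474), a call lost without replicate 1, 3 or 4 of day 2 or any library of day 14 (adjusted p up to 0.181). Within the low side of the predicted-gene split, the changes on day 2 were 2.54 for Clec4d, 2.66 for Clec4n and -1.23 for Clec12a, all called by edgeR, and between the stroke days Clec4d alone was still called (-1.70, adjusted p = 0.0404). The microglial marker sum in MdC was 270 to 828 CPM on day 2 and 291 to 2285 on day 14, and its part in the Cd72 values was not tested.

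**Figure D4:**
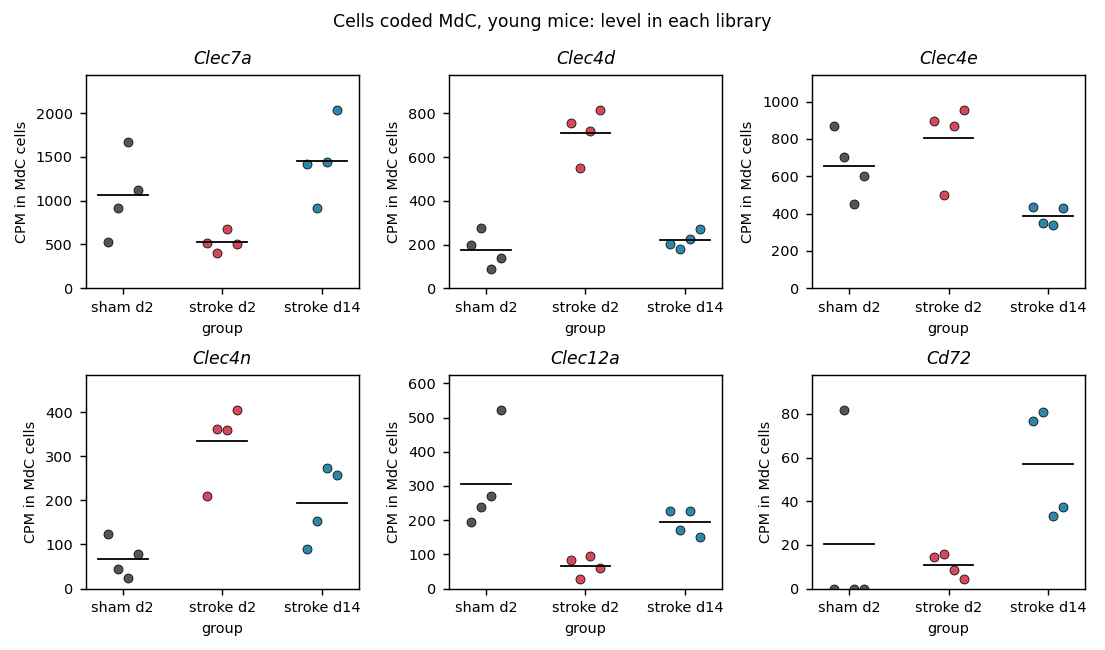
Levels of the 6 genes in MdC in each brain library (points, linear axis in CPM from 0), by group, with the group mean as a line. Clec4d and Clec4n are higher on day 2 than in sham and Clec12a is lower, and the Clec4d libraries of day 14 lie back in the sham range.

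Other markers in the MdC sums moved too. The neutrophil marker sum was 276 to 3480 CPM in sham, 133 to 320 on day 2 and 47.0 to 90.8 on day 14, with overlap between sham and day 2, and its part in the Clec4d change was not tested. The sum of border-macrophage markers, the type in which Clec4n was highest in sham, was 68.2 to 480 CPM in sham, 520 to 1085 on day 2 and 837 to 1369 on day 14, and its part in the Clec4n change was not tested. The make-up of MdC by finer code changed, from 75.7% ± 10.8 MdC3 in sham to 31.5% ± 3.4 MdC1 and 28.8% ± 2.3 MdC2 on day 2 and 34.0% ± 1.3 MdC6 on day 14. Within MdC3, present in all 12 young libraries, Clec4d was 174 ± 66.9 CPM in sham, 401 ± 108 on day 2 and 263 ± 139 on day 14. Clec4n in MdC3 was 52.6 ± 18.9, 191 ± 79.4 and 98.1 ± 101 CPM in the same order, and Clec12a was 337 ± 189, 185 ± 54.1 and 129 ± 128 CPM. In MdC3 the mean of Clec12a was thus lower on day 14 than on day 2, with overlapping spreads, whereas over all MdC it rose between these days. The codes were clustered on the same transcripts, and the part of the changed make-up in these results was not tested. On day 2, Clec4d and Clec4e were highest in MdC2 (1085 ± 114 and 1332 ± 144 CPM) and Clec4n in MdC5 (678 ± 236 CPM). In aged mice, MdC on day 2 had Clec4d at 786, 1290.0 and 784 CPM, Clec4e at 1113, 1376 and 895 CPM, Clec4n at 396, 349 and 294 CPM and Clec12a at 66.5, 53.5 and 81.8 CPM. None of the 6 genes differed between aged and young day 2 libraries at an edgeR adjusted p under 0.05, where 0% of genes were called (154 at an unadjusted p under 0.05, and 13 called by DESeq2). The largest of those differences was 1.01 ± 0.81 for Cd72 and the smallest 0.04 ± 0.36 for Clec7a. Age, sex and deposited table differed together between these aged and young libraries, and their parts cannot be told apart. Cd72 was at the edge of the filter on low counts. It was tested in only 1 of the fits that leave out a library, at 0.72.

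In Gran, the cells with neutrophil markers, Clec4n was at or near 0 in sham and was detected in every stroke library. It was at 0, 24.3, 0 and 0 CPM in young sham, 416, 1339, 243 and 214 on day 2, and 379, 416, 1102 and 462 on day 14. The sham value rested on 2.845 counts in 1 library, and every stroke library was far above it in CPM. The stroke values rested on 3.999 counts (29 cells, replicate 2 of day 14) to 104.465 counts each, so some single libraries hold few counts. Over pooled counts the ratio to sham was 38.0 (95% exact binomial interval, counting error only, 11.8 to 179) on day 2 and 83.5 (26.4 to 388) on day 14. Replicate 3 gave 104.465 of the 134.346 counts of day 14, and without it that ratio was 43.9. With 1 other library left out the ratio was 25.2, without replicate 2 of day 2, to 53.6 on day 2 and 65.7 to 94.7 on day 14, and without sham replicate 2, which leaves sham at 0, it was at least 21.5 and 47.2 against a floor of 3 counts over the group. Clec4n passed the filter on low counts only through its stroke libraries and was at 0 in 3 of 4 sham libraries, so no fitted change is given. It was called by edgeR on both days with the filter (adjusted p = 0.000778 and 0.000123) and with no filter (adjusted p = 5.07e-07 and 2.76e-09). In the aged brain it was 0 and 21.2 CPM in sham and 486, 168 and 886 CPM on day 2. Across all genes tested in Gran, 8.35% were called on day 2 and 26.1% on day 14.

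Clec4e in Gran was 1219, 697, 1061 and 636 CPM in sham, 1929, 1594, 1970.2 and 1535 on day 2, and 3226, 3018, 1240.0 and 1814 on day 14. Every stroke library was above every sham library, by a log2 fold change of 0.77 ± 0.35 on day 2 and 0.93 ± 0.35 on day 14 (edgeR adjusted p = 0.2 and 0.0591). The day 14 change was called without sham replicate 1 (adjusted p = 0.0437) and without replicate 3 of day 14 (adjusted p = 0.0295), and by DESeq2 (adjusted p = 0.0432). Clec4d was 819, 986, 613 and 697 CPM in sham, 2088, 1527, 1378 and 1341 on day 2, and 1660.3, 2289.6, 1378 and 1668 on day 14. Its stroke libraries too were all above sham, by 0.80 ± 0.31 and 0.72 ± 0.31 (edgeR adjusted p = 0.13 and 0.0983). Clec7a was 584, 923, 1548 and 1331 CPM in sham, 1056, 194, 895 and 964 on day 2, and 2166, 1228, 1722 and 4000.0 on day 14, with the sham range overlapping both stroke groups, which did not overlap each other, and was not called against sham. These values move with the scaling. The median neutrophil marker sum in Gran was 293566 CPM in sham, 164658 on day 2 and 59343 on day 14, with Ly6g at 0 in the last group, and its part in these shifts was not tested. With library size alone in place of the TMM scaling, the median of all genes moved from -0.01 to 0.24 on day 2 and from -0.06 to 0.44 on day 14, and Clec4d was called on both days (1.10 and 1.28, edgeR adjusted p = 0.0317 and 0.00491) and Clec4e and Clec7a on day 14 (1.47 and 1.21, edgeR adjusted p = 0.00498 and 0.0426). Clec12a was 66.9 to 136 CPM in sham and 0 in 1 of 4 day 2 and 3 of 4 day 14 libraries. Cd72 did not pass 16.9 CPM, and neither gene was tested.

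**Figure D5:**
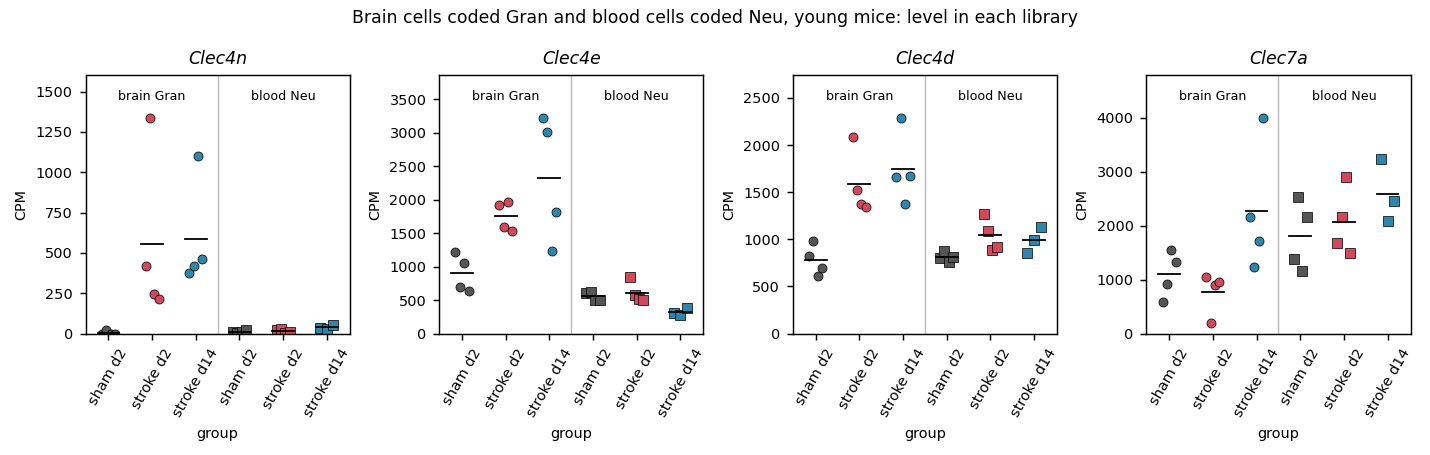
Levels of Clec4d, Clec4e, Clec4n and Clec7a in Gran of brain and Neu of blood in each young library (circles for brain, squares for blood, linear axis in CPM from 0), by group, with the group mean as a line. Clec4n is at most 24.3 CPM in Gran of sham brain and at most 55.6 CPM in Neu of blood, and at least 214 CPM in Gran after stroke.

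By finer code, Gran1 held 81.7% ± 6.9 of Gran cells in sham, 32.9% ± 12.5 on day 2 and 5.04% ± 1.6 on day 14, and Gran2 held 49.4% ± 6.0 and 60.3% ± 5.7 on the 2 stroke days. Clec4n was low in Gran1 in both groups and high in Gran2 and Gran3. In Gran1 it was 8.27 ± 16.5 CPM in sham and 9.45 ± 13.4 on day 2 (n = 2), whereas in Gran2 it was 532 ± 280 on day 2 and 456 ± 385 on day 14 (n = 3), and in Gran3 1506 ± 1214 on day 14 (n = 2). Clec4e showed a smaller step, from 1048 ± 339 CPM in Gran1 of sham and 1219 ± 31.1 in Gran1 of day 2 to 2227 ± 537 in Gran2 of day 2. These codes come from clusters of the same transcripts, so the steps between codes carry no test.

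In blood neutrophils, Clec4n stayed low and Clec4e fell late. Clec4n in Neu was 11.7, 4.69, 8.64 and 20.3 CPM in sham, 25.0, 28.5, 4.03 and 10.9 on day 2, and 32.5, 29.3 and 55.6 on day 14. The day 14 libraries were above all sham libraries, by a log2 fold change of 1.45 ± 0.50 (edgeR adjusted p = 0.101). Clec4e was 611, 622, 508 and 506 CPM in sham, 845, 580.1, 512 and 505 on day 2, and 312, 273 and 384 on day 14. It fell by 1.15 on the log2 scale on day 14 (SE 0.25, edgeR adjusted p = 0.0148), with 5.99% of genes called, and edgeR no longer called it once sham replicate 1 (adjusted p = 0.0502) was left out or day 14 replicate 1, 2 or 3 was (adjusted p = 0.066, 0.0633 and 0.057). With the predicted-gene split as a term the change was -1.06 ± 0.22 (edgeR adjusted p = 0.00929). Clec4d was 761 to 878 CPM in sham, 886 to 1271 on day 2 and 856 to 1132 on day 14, and Clec7a was 1165 to 2523, 1500.4 to 2902 and 2089 to 3239 CPM, neither called on either day. The neutrophil marker sum in Neu was 192567 to 301080 CPM in sham and 105721 to 203018 on day 14. By finer code, Neu3 went from 10.1% ± 14.8 of Neu cells in sham to 73.8% ± 9.2 on day 14. Neu1 went from 29.7% ± 8.0 to 3.5% ± 2.0 and Neu2 from 38.0% ± 10.0 to 4.4% ± 2.7. The part of this changed make-up in the Neu values was not tested. On day 2 no member was called in Neu, where edgeR called 0% of genes (209 at an unadjusted p under 0.05, and 0 called by DESeq2).

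In blood monocytes, Clec4e was 123, 142, 125 and 124 CPM in sham, 220.3, 213, 105 and 138 on day 2, and 67.0, 53.7 and 47.1 on day 14. All 3 day 14 libraries were below all others, by -1.18 ± 0.27 on the log2 scale, which edgeR did not call (adjusted p = 0.112) and DESeq2 did (adjusted p = 0.023), with 0.254% of genes called by edgeR. Clec12a in Mo was 308 to 355 CPM in sham, 315 to 388 on day 2 and 295 to 366 on day 14, with overlap between all groups. By finer code, Mo2 went from 34.0% ± 13.3 of Mo cells in sham to 2.8% ± 1.7 on day 14, and Mo1 from 25.1% ± 15.1 to 43.3% ± 8.0. The part of this changed make-up in the Mo values was not tested. No member was called in Mo on day 2, with 0% of genes called by edgeR (189 at an unadjusted p under 0.05, and 0 called by DESeq2). Cd72 in blood B cells was 213 to 307 CPM in sham, 183 to 324 on day 2 and 169.9 to 293 on day 14. Its changes were 0.07 ± 0.22 and -0.15 ± 0.23 (edgeR adjusted p = 1 for each), with 0% and 0.0114% of genes called (171 at an unadjusted p under 0.05 on day 2, and 0 called by DESeq2). In brain B cells, few as they were, Cd72 was 661, 502, 379.8 and 103 CPM in sham, 887 and 833 in the 2 day 2 libraries with at least 20 such cells, and 497, 431 and 307 on day 14.

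The day 2 libraries of brain and blood were set against each other in the matching cell classes. Against blood monocytes, brain MdC had higher Clec4d (log2 difference 3.75 ± 0.33, edgeR adjusted p = 9.68e-06), Clec4n (3.48 ± 0.33, 1.52e-05) and Clec4e (2.57 ± 0.33, 0.00014), and lower Clec12a (-2.12 ± 0.34, 0.000656). Clec7a differed by -0.42 ± 0.31 (edgeR adjusted p = 0.35). Of 5 members tested 4 were called, and 24.7% of all genes were. Clec4d was 549 to 815 CPM in the brain libraries and 33.9 to 86.1 CPM in blood, with no overlap, whereas Clec7a was 405 to 677 and 546 to 1367 CPM, with overlap. Against blood neutrophils, brain Gran had higher Clec4n (4.54 ± 0.55, edgeR adjusted p = 2.61e-05) and Clec4e (1.49 ± 0.31, 0.00476), and lower Clec7a (-1.35 ± 0.41, 0.0486), where 9.16% of all genes were called. Clec4n passed the filter only through brain here, and with no filter its difference was 3.73 ± 0.41, again called by edgeR. The Clec4e call was lost without brain or without blood replicate 3 (adjusted p = 0.0571 at most) and with no filter on low counts (0.78, adjusted p = 0.407), and the Clec7a call in 6 of the fits that leave out 1 library (adjusted p up to 0.1). Clec4d differed by 0.54 ± 0.29 (edgeR adjusted p = 0.263) and Clec12a by -0.77 ± 0.56 (edgeR adjusted p = 0.404). Tissue, sorting, enzyme digestion and the deposited table differ together between brain and blood, and their parts cannot be told apart.

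In BAM and DC no member was called against sham on either day. The changes nearest to a call on day 2 were those of Clec7a in BAM and Clec12a in DC, both downward. Clec7a in BAM was 334, 417, 869.7 and 1898 CPM in sham, 107, 279.7, 409 and 167 on day 2, and 797, 882, 1137 and 1439 on day 14. It changed by -1.82 ± 0.56 on day 2 (edgeR adjusted p = 0.0817, DESeq2 adjusted p = 0.0362, and 0.0461 in edgeR without sham replicate 1) and by 0.36 ± 0.52 on day 14 (edgeR adjusted p = 0.965). Of all genes tested in BAM, 2.67% and 0.0762% were called on the 2 days. Clec4n, highest in BAM at baseline, was 244 to 571 CPM in sham, 294 to 655 on day 2 and 198 to 537 on day 14, with full overlap. Clec4d in BAM, too low to be tested, was 33.6, 9.70, 0 and 0 CPM in sham and 159, 54.4, 239.8 and 159 on day 2. The monocyte marker sum in BAM was 12045 to 19913 CPM in sham and 11704 to 25647 on day 2, with overlap, and its part was not tested. In DC, Clec12a was 255, 185, 197 and 105 CPM in sham and 61.0, 61.8, 102 and 66.1 on day 2, a change of -1.38 ± 0.34 with no overlap (edgeR adjusted p = 0.0684, DESeq2 adjusted p = 0.0393). Cd72 in DC was 94.8 to 125 CPM in sham and 185 to 343 on day 14 (1.16 ± 0.37, edgeR adjusted p = 0.166), and Clec4n was 65.7 to 107 and 13.0 to 42.7 CPM (-1.67 ± 0.54, edgeR adjusted p = 0.166). In DC, 1.01% and 1.53% of genes were called on the 2 days. The make-up by finer code changed too. From sham to day 2, BAM4 went from 1.5% ± 1.8 to 29.4% ± 12.2 of BAM cells, and BAM2 from 42.7% ± 27.1 to 21.2% ± 5.2. DC3 went from 10.8% ± 7.4 of DC cells in sham to 36.2% ± 5.7 on day 2, and DC1 from 18.3% ± 7.8 in sham to 33.6% ± 7.0 on day 14. The part of these shifts in the changes above was not tested.

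The genes that work with these receptors were read from lists of other lectin receptors, adaptors and signalling proteins, inhibitory phosphatases, ligands and outputs. In Mg on day 2, 9 of 22 adaptor and signalling genes were lower and 2 higher (8 and 2 without replicate 3 of day 2, and 5 and 1 with no filter), where 31.4% of all genes tested were called, 1588 higher and 1594 lower. The lower ones included the kinase Syk (-1.26 ± 0.29) and the Card9 partners Bcl10 (-1.14 ± 0.23) and Malt1 (-1.67 ± 0.38). The median of all 22 adaptor and signalling genes was -0.48, against -0.05 for all genes tested. The phosphatase gene Inpp5d was lower (-0.84 ± 0.30), a call lost in 9 of 16 alternatives (adjusted p up to 0.139). The related receptors Clec4a2 (-1.61 ± 0.30) and Clec4a3 (-1.27 ± 0.23) were lower while Clec7a and Cd72 were higher. On day 14, 5 of the 22 adaptor genes were called higher and 0 lower, where 15.2% of all genes were called, 1071 higher and 473 lower. The median of all 22 was nonetheless -0.21, against -0.04 for all genes tested, so the list as a whole did not move up. Without TMM scaling, 2 of the 22 were called higher and 12 lower, with 670 and 2755 over all genes. The direction of the calls in this list thus rests on the scaling. With DESeq2, 4 were higher and 2 lower, and with no filter 3 and 0. On each day 1 of the adaptor genes called higher, Fgr (named after its values were seen), passed the filter only through stroke libraries. Those called higher included Tyrobp (1.51 ± 0.30), Hcst (1.19 ± 0.30, call lost in 4 of 16 alternatives) and Relb (1.13 ± 0.34, lost in 9 of 16), and Clec4a2 and Clec4a3 were still lower (-2.48 ± 0.29 and -1.47 ± 0.21). Of 10 output genes tested in Mg on day 14, 4 were higher and 0 lower, 4 and 1 without TMM, and 6 and 0 of 16 with no filter, where 8.85% of all genes were called. Of the 4, 2 passed the filter only through stroke libraries, so their count is no support. They included the chemokine Cxcl2, at a mean of 2.44 CPM in sham and 146 CPM on day 14, Tnf (2.32 ± 0.70, call lost in 8 of 16 alternatives) and the inflammasome adaptor Pycard (1.03 ± 0.24, lost in 2 of 16).

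In MdC on day 2, none of 20 adaptor genes, 10 other lectin genes and 11 output genes was called against sham by edgeR, with 3, 3 and 6 of them at an unadjusted p under 0.05 and 2 of each list called by DESeq2. Over all genes tested, 6.71% were called, so 0 calls in lists this short says little. The ligand genes Lgals9 (2.87 ± 0.43), a galectin that binds Clec7a, and Vim (1.48 ± 0.37, call lost in 7 of 16 alternatives) were higher. Of the output genes in Gran, several passed the filter only through the groups in which they were high, so counts are given with no filter: 2 of 12 were called higher on day 2, where 0.374% of all genes were called, and 4 of 12 on day 14, where 1.83% were, with 0 lower. Tnf stood at a mean of 33.4 CPM in sham, 570.0 on day 2 and 577 on day 14, and Ccl3 at 77.4, 558 and 3401 CPM. Cxcl2 was at 3521 CPM in sham and 12723 on day 2 (1.68 ± 0.34), a call lost with no filter (adjusted p = 0.391). Against blood on day 2, 8 of 11 output genes were called higher in MdC (10.6% of all genes called) and 5 of 10 in Gran (5.36%) with no filter, and 0 lower. Shares over all genes with no filter include the genes that the filter leaves out. With the filter, 24.7% of all genes were called between MdC and blood monocytes. Syk was then lower in MdC (-1.04 ± 0.23), with 5 of 20 adaptor genes lower and 1 higher (2 and 1 without brain replicate 3). In DC, Clec4b1 (-2.59 ± 0.56, call lost in 6 of 16 alternatives), Mrc1 (-3.17 ± 0.48) and the chemokine gene Ccl17 (-3.22 ± 0.39) were lower on day 2 and the kinase gene Fgr was higher (2.66 ± 0.47). In aged Mg on day 2, Clec4a2 (-1.35 ± 0.32) and Clec4a3 (-1.18 ± 0.27) were the called genes among 5 other lectin genes, both lower, where 2.3% of all genes were called. Neither was called with only the compared groups, without either aged sham library or without the first female aged stroke library (adjusted p up to 0.255), and over all genes the count called then fell from 255 to as few as 0.

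Over the 102 library-by-type sums of young brain, each gene was also compared with 11709 others by the Pearson correlation of log2(CPM + 1), a description in which sums share libraries and depth. Clec4d and Clec4e were near neighbours of each other (r = 0.86), with the formyl peptide receptor gene Fpr2 (0.89) nearest to Clec4d and Emilin2 (0.88) nearest to Clec4e. Clec7a was closest to Igsf6 (0.91) and Ptafr (0.90), Clec12a to Cybb (0.79) and Cfp (0.79), and Clec4n to the ferritin genes Ftl1 and Fth1 (0.82 each). Cd72 stood apart from the lectin genes, with r from -0.23 to 0.31 against the other 5, and was closest to the B cell gene Ighm (0.71), Irf8 (0.68) and Gpr183 (0.68).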

How the data were processed

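The authors deposited 1 table of expected counts per library, genes by cells, with a coarse and a fine cell type code per cell. Most values lie just under whole numbers, and the step that made them fractional is not given in the sources used here. The submitters' processing notes name mm10 and Seurat. Values were summed per library and type over every deposited cell, written as CPM (counts per 1e6), and kept where a library held at least 20 cells of the type. For tests, the sums were rounded and fitted with edgeR 4.0.16 (R 4.3.3; TMM, filterByExpr, quasi-likelihood F test, two-sided) on the whole gene table, with the 3 young groups of a tissue in one fit. A gene was called at a Benjamini-Hochberg adjusted p under 0.05 over all genes tested. The SE is the absolute log2 fold change over the square root of F. Where a gene was at 0 throughout a group, a floor of 3 counts was used.

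The members and lists were chosen with earlier results of these data known, and the Gran comparisons and the predicted-gene split were added after levels had been seen. From each list, at most 3 called genes of the largest change, if their mean reached 20 CPM, were named per comparison, and for each member the 3 genes of highest correlation, where the mean reached 5 CPM, were looked up. As alternatives, the tests were run with DESeq2 1.42.0, without the low-count filter, without TMM, with counts rounded up, on the compared groups only, with each library left out, with a replicate block, by the predicted-gene split, and with the 6% of cells with the highest Scrublet scores left out. The last replaced a planned doublet filter, because Scrublet's own threshold marked 0.0682% of 106977 cells, too few to serve as an alternative. Whether doublets were removed before deposit is not given in the sources used here. The fit was tested on simulated data of the sham and day 2 groups alone, without the day 14 group of the main fits. In Mg (8593 genes), 93.8% of 96 genes changed 4-fold and 8.60% of 93 changed 2-fold were recovered. In MdC (6148 genes), 61.3% of 75 and 2.27% of 88 were. Genes left unchanged were called too. In Mg there were 7 such calls, beside 90 of genes changed 4-fold and 8 of genes changed 2-fold. In MdC there were 10, beside 46 and 2.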

Additional observations from a re-analysis of the deposited data

Results flagged for a closer look

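Among 107 groups of 4 libraries, 13 held a library that stood apart from the other 3 by Dixon's criterion, which chance alone meets in about 1 group in 20. That rate does not hold for the 5 of them in which the other 3 libraries were at or near 0. The library of young stroke day 2 replicate 3 gave 4 of them: Clec7a in Mg at 1009 CPM (26.6 counts; others 107 to 126), Clec4d in Mg at 98.9 CPM (2.604 counts; others 0 to 15.5), Clec12a in BAM at 324.7 CPM (others 97.2 to 134) and Clec12a in DC at 102.4 CPM (others 61.0 to 66.1). In replicate 3 of young stroke day 14, Clec4n was 1101.7 CPM in Gran (others 379 to 462) and 6.71 CPM in Mg (others 0 to 0.0932), and Clec12a was 102.8 CPM in Gran (others 0). Clec4e in Mg of day 14 replicate 1 was 2.32 CPM (others 0), and Cd72 in MdC of sham replicate 2 was 81.6 CPM (others 0). In blood sham libraries, Clec12a in Bc of replicate 2 was 24.6 CPM (others 11.2 to 12.4), Clec4e in Bc of replicate 4 was 3.86 CPM (others 0), Clec4e in Mo of replicate 2 was 142 CPM (others 123 to 125), and Clec12a in Neu of replicate 4 was 218 CPM (others 90.8 to 103).

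Clec4e had opposite directions on day 14 in the granulocytes of the 2 tissues, with every library on its side. Its mean was 2324.5 CPM in Gran of brain against 903 in sham, and 323 CPM in Neu of blood against 562 in sham. By edgeR the change in Gran was not called, and the call in Neu was lost in some fits that leave out a library. The Gran values also move with the scaling, and so does the median change of all genes in Neu. The difference between the tissues was not tested.

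The single aged library of day 14 entered no comparison. It had Clec7a at 1162 CPM in Mg (aged sham 103 to 270.2) and 2671 CPM in Gran (aged sham 271 to 1741), Cd72 at 122 CPM in Mg (18.7 to 19.8), Clec4n at 314 CPM in MdC (70.0 to 82.6) and Clec4e at 1640.0 CPM in Gran (364 to 1038).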

How the results depend on the processing

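Over the alternatives tried, 0 of 361 fits of called members changed sign, 51 lost the call, 28 of 1143 fits of uncalled members gained one and 63 of these changed sign, and 37 of 498 levels moved by more than 1 SD. The count of members called changed as follows. In Mg from day 2 to day 14 it was 1, and 0 with only the compared groups (0 to 1 with a library left out). In MdC it was 3 on day 2 (2 to 3 with a library left out), 0 on day 14 against sham (1 with DESeq2, no filter or the low side of the predicted-gene split, 0 to 1 with a library left out) and 4 between the stroke days (2 with no filter or only the compared groups, 1 on the low side, 1 to 4 with a library left out). In DC it was 0, and 1 with DESeq2 or only the compared groups on day 2 and with counts rounded up on day 14. In BAM on day 2 it was 0, and 1 with DESeq2, no filter, counts rounded up or the low side (0 to 1 with a library left out). In Gran it was 1 (Clec4n), and 2 without TMM on day 2. On day 14 in Gran it was 2 with DESeq2, only the compared groups or the replicate block, and 4 without TMM (1 to 2 with a library left out). In blood it was 0 in Mo on day 14 (1 with DESeq2 or no filter) and 1 in Neu on day 14 (2 without TMM, 0 to 1 with a library left out). In aged Mg it was 1 (2 with no filter, 0 with only the compared groups, 0 to 1 with a library left out), in Gran against Neu 3 (1 to 3 with a library left out), and in MdC against Mo 4 (5 with no filter or counts rounded up, 4 to 5 with a library left out). The cause of these shifts was not tested.

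Over all genes, the number called moved by over 1.5 times in these cases. In Mg it was 3182 on day 2 (2094 to 3120 with a library left out). On day 14 in Mg it was 1544 (3425 without TMM, 870 on the low side, 791 to 2573 with a library left out), and between the stroke days 703 (1157 without TMM, 426 with only the compared groups, 431 on the low side, 276 to 735 with a library left out). In MdC it was 542 on day 2 (355 without TMM, 284 to 481 with a library left out), 416 on day 14 (246 to 349) and 145 between the stroke days (386 with DESeq2, 469 with the replicate block, 305 with the predicted-gene split as a term, 88 on the low side, 45 to 191 with a library left out). In DC it was 44 on day 2 (99 with DESeq2, 124 with no filter, 75 rounded up, 74 on the low side, 16 to 85 with a library left out) and 67 on day 14 (128 with no filter, 102 rounded up, 15 to 66 with a library left out). In BAM it was 35 on day 2 (19 with no filter, 2 with the replicate block, 21 on the low side, 2 to 52 with a library left out) and 1 on day 14 (2 with DESeq2, 14 with no filter, 3 with only the compared groups, 0 to 1 with a library left out). In Gran on day 2 it was 83 (45 with no filter, 42 to 80 with a library left out). In blood it was 0 on day 2 in Mo and Neu (13 and 32 with no filter), 17 on day 14 in Mo (37 with DESeq2, 97 with no filter, 31 with the replicate block, 27 with the split as a term, 2 to 27 with a library left out), 296 in Neu (487 with no filter, 83 to 359 with a library left out) and 1 in Bc (0 to 7 with a library left out, 2 with DESeq2, 5 with no filter, 0 rounded up, with only the compared groups or with the replicate block). In aged Mg it was 255 (466 with DESeq2, 393 with no filter, 0 with only the compared groups, 0 to 323 with a library left out), 0 for the interaction (1 with DESeq2, 17 with no filter, 0 to 1 with a library left out), 0 for aged against young MdC (13 with DESeq2, 32 with no filter, 0 to 65 with a library left out), and 181 for Gran against Neu (329 with DESeq2, 706 with no filter, 321 rounded up, 114 with the split as a term, 119 to 216 with a library left out).

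Without TMM the median change of all genes moved from -0.05 to -0.22 in Mg on day 2, from -0.04 to -0.49 on day 14 and from 0.10 to -0.19 between them, from 0.29 to -0.13 and 0.28 to -0.11 in MdC on days 2 and 14, from 0.02 to 0.36 in Neu on day 14 and from 0.04 to -0.20 in MdC against Mo. The genes called higher and lower then went from 1588 and 1594 to 1273 and 2118 in Mg on day 2, from 1071 and 473 to 670 and 2755 on day 14, and from 352 and 351 to 202 and 955 between them. They went from 457 and 85 to 180 and 175 in MdC on day 2, from 340 and 76 to 200 and 199 on day 14, and from 1007 and 856 to 725 and 1249 in MdC against Mo. In Gran they went from 55 and 28 to 78 and 17 on day 2 and from 129 and 130 to 198 and 62 on day 14, and in Neu on day 14 from 108 and 188 to 293 and 99.

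Whether the labels' replicate numbers pair the libraries was not settled. The correlation of same-numbered deviations was -0.30 to 0.54 over 12 pairs in Mg (median 0.07) and -0.08 to 0.76 in MdC (median 0.04). Its median was 0.02 to 0.03 in DC and BAM (highest 0.72 and 0.61) and 0.04 to 0.11 in blood. Over pairs of differing number the median was -0.02 in Mg, -0.01 in MdC, 0.009 in DC, 0.005 in BAM and -0.08 to -0.05 in blood. The same-numbered median was thus the higher in every fit, a difference that was not tested. The replicate block moved calls as given above. Sums of under 30 cells limited BAM, Bc and some Gran values. In the simulated data, in which few genes were changed, 2-fold changes were rarely called. In Mg some smaller changes were called, such as that of Lgals9 on day 2 (0.85 ± 0.20). Intervals and floors cover counting error only.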
